A study of Mus musculus with 4 samples.

Results

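The genes described here are 42 genes of the cell cycle and mitosis, read by gene symbol out of the 27179 genes counted in bulk RNA sequencing of mouse liver. They were taken as 23 genes of mitosis, 13 genes of S phase, in which DNA is copied, and 6 genes that control the step before it, from G1 into S phase. Liver RNA of C57BL/6 wild-type mice labelled male was compared between 2 libraries titled fasted, from mice kept without food overnight with free water, and 2 libraries titled unfasted, from mice with food and water at all times, matched for age and sex. The ages of the mice were not given, and no treatment beyond fasting was named for these libraries. Nothing in the labels says that the 2 libraries of a group came from separate mice, so every p-value below rests on the spread of these libraries alone, and that spread may be technical.

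Cells that divide copy their DNA in S phase and then part the copies in mitosis. The genes for each phase are switched on in turn, those of S phase by E2F factors and those of mitosis later through CHR and CCAAT elements in their promoters. Hepatocytes of the adult mouse liver rarely divide, and many of them hold more than the usual number of genomes. Trophoblast giant cells of the mouse placenta are known for copying their DNA again and again without mitosis. This cycle is called endoreduplication, and it is why genes of S phase are set against genes of mitosis here.

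The labels did not go together with the libraries in all respects. A treatment field names all 4 libraries fasted, so the groups rest on the titles. Xist, which is expressed from the inactive X chromosome of female cells, had 2 and 1 counts in the fasted libraries, against 25772 and 26316 counts in the unfasted libraries, which were labelled male as well. All 14 hepatocyte markers were detected in all 4 libraries, with summed levels of 141226 and 141409 counts per 1000000 counts of the library (CPM) in the fasted libraries and 57272 and 56936 CPM in the unfasted libraries. Markers of placenta and decidua were found almost only in the unfasted libraries. All 6 trophoblast giant cell markers were higher in each unfasted library. Their sums were 0.0738 and 0.148 CPM in the fasted libraries and 10614 and 10698 CPM in the unfasted libraries, and Prl3d1, Prl2c2, Hand1 and Plac1 were at 0 in both fasted libraries. All 7 markers of spongiotrophoblast and glycogen cells summed to 8.12 and 7.54 CPM in the fasted libraries, against 44512 and 44948 CPM in the unfasted libraries. Prl8a8 and Ascl2 were among the markers at 0 in both fasted libraries. Labyrinth markers (5 of 6 higher in each unfasted library) summed to 0.886 and 0.813 CPM in the fasted libraries and 234 and 233 CPM in the unfasted libraries. Gcm1, Syna and Tfap2c were at 0 in both fasted libraries, and Synb in all 4. Decidual markers (4 of 5) summed to 18.5 and 17.7 CPM in the fasted libraries and 2247 and 2290.4 CPM in the unfasted libraries. Marker sums named for other cell types differed as well, to unequal degrees, and whether they came from liver or placenta cannot be told apart here. Cholangiocyte markers (4 of 4 higher in each unfasted library) summed to 41.7 and 35.9 CPM in the fasted libraries, against 385 and 383 CPM in the unfasted libraries, and endothelial markers (3 of 5) to 162 and 160.2 CPM in the fasted libraries, against 558 and 555 CPM in the unfasted libraries. Kupffer cell markers (0 of 5) summed to 267 and 262 CPM in the fasted libraries, against 89.0 and 85.2 CPM in the unfasted libraries. Their part in the results was not tested. The 24 genes of placenta and decidua took 0.00276% and 0.00262% of the counts of the fasted libraries (Wilson 95% intervals 0.00250 to 0.00306% and 0.00237 to 0.00291%), against 5.76% and 5.82% of the unfasted libraries (5.75 to 5.77% and 5.81 to 5.82%). This difference runs along every comparison below, and the part that fasting, sex and placental RNA have in any of them cannot be told apart. In bulk RNA, fewer cells of a type and less RNA per cell cannot be told apart either.

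The fasted libraries held 13541405 and 13528015 counts and the unfasted libraries 36975921 and 36943535, so raw counts are given below beside normalised counts, each library's counts over its median-of-ratios size factor. A log2 fold change is fasted over unfasted. The median log2 ratio over the 15470 tested genes was -0.13 in this scaling, -0.63 when scaled to total counts and -1.98 when scaled to the 14 hepatocyte markers. Scaling to total counts lowers every log2 ratio of summed counts by 0.50, and scaling to hepatocyte markers lowers it by 1.85, while fitted fold changes of genes with few counts move slightly less, so that a gene called higher below can lie below 0 in another scaling.

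Of the 42 genes, 6 were higher and 14 lower in the fasted libraries, 18 did not pass the test, and Ccnb1, Aurkb, Ttk and Cenpf were too low to be tested (edgeR quasi-likelihood test, Benjamini-Hochberg adjusted p under 0.05). Among all tested genes, 37.2% were called higher and 45% lower, or 82.2% in either direction. Being called was thus the rule in this comparison, and 20 of 38 cell cycle genes were. The genes higher in this scaling were Aurka, Kif11, Mcm7, Tyms, Ccnd1 and E2f8, and each had a negative log2 value when scaled to hepatocyte markers. Those lower were Bub1, Cenpe and Tpx2 of mitosis, Mcm2, Mcm4, Pcna, Rrm1, Rrm2, Cdc6, Cdt1 and Gins2 of S phase, and Ccne1, Ccne2 and E2f7 of G1/S control. Scaled to total counts, 1 gene was higher and 26 were lower (23% and 62.7% of all tested genes). Scaled to hepatocyte markers, 0 were higher and all 38 tested genes were lower (3.93% and 91.4% of all tested genes). Only 24 of the 38 tested genes passed the filter on low counts in both groups, and of these 6 were higher and 7 lower. The other 14 passed it through the unfasted libraries alone, and so had to be low in the fasted ones. For the 7 of them called lower, Bub1, Cenpe, Tpx2, Cdc6, Gins2, Ccne1 and E2f7, the counts themselves are the description. In 16 alternative scalings, filters, tests and sets of libraries, 6 of the 20 calls were kept each time, those of Rrm1, Rrm2, Gins2, Tpx2, Ccne2 and E2f7. Gins2, Tpx2 and E2f7 are among the genes that had to be low in the fasted libraries, so keeping their calls adds no support.

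**Figure D1:**
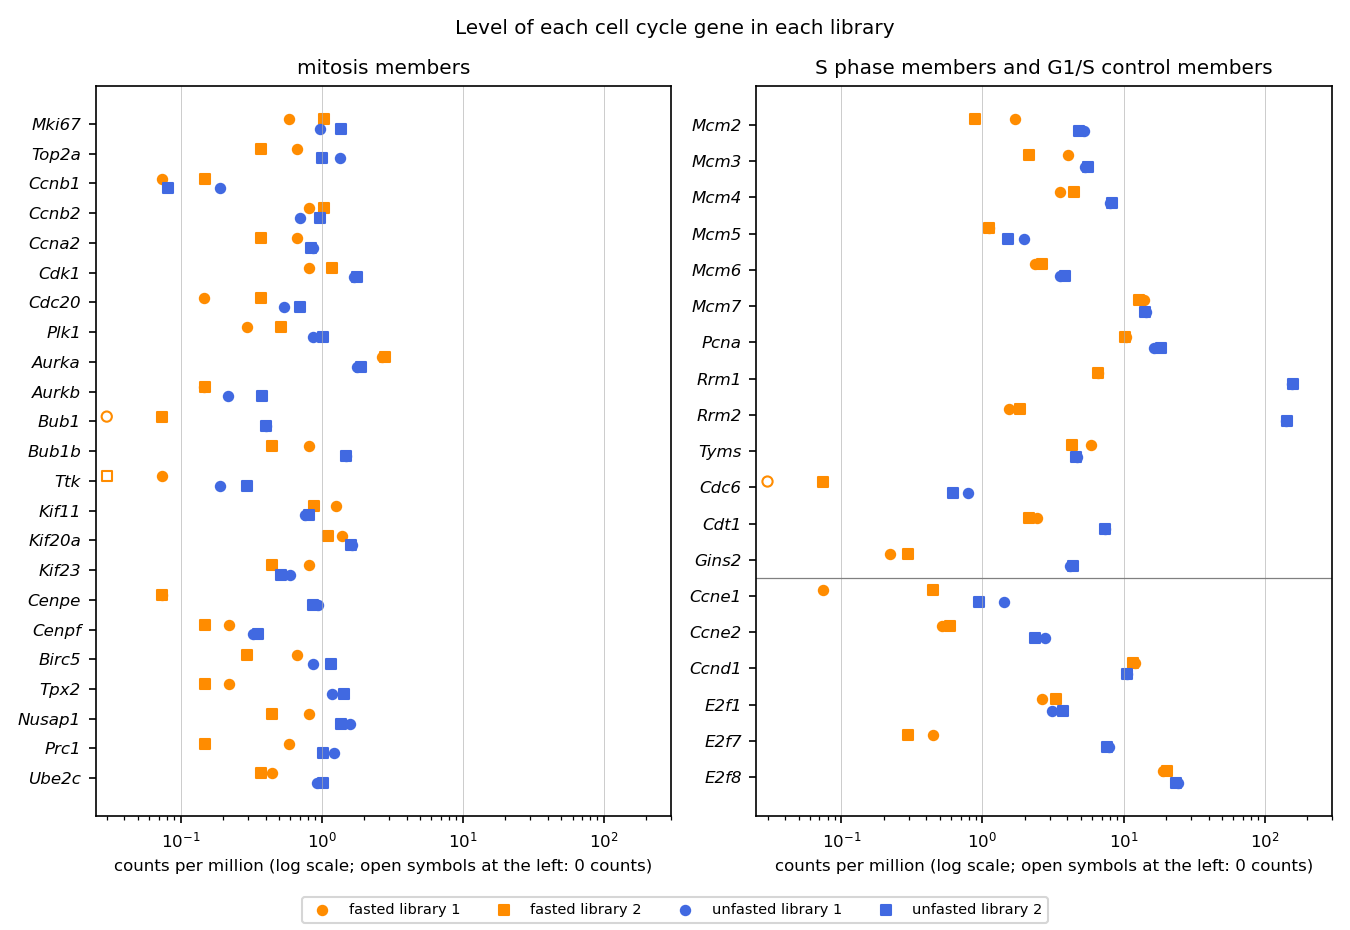
Level of each of the 42 genes in each library, in CPM on a log axis, with fasted libraries in orange above unfasted libraries in blue and genes at 0 counts drawn as open symbols at the left edge. Rrm1 and Rrm2 stand alone at 141 to 158 CPM in the unfasted libraries, against 1.55 to 6.58 CPM in the fasted libraries, while no mitosis gene passes 2.81 CPM in any library.

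The largest difference among the 42 genes lay in ribonucleotide reductase, the enzyme that turns ribonucleotides into the deoxyribonucleotides from which DNA is made. Its large subunit Rrm1 had 89 and 89 counts in the fasted libraries, against 5759 and 5819 counts in the unfasted libraries, or 174 and 175 when fasted against 2918 and 2950.1 normalised counts when unfasted. The small subunit Rrm2, which carries the radical needed for the reaction, had 21 and 25 counts in the fasted libraries and 5232 and 5346 counts in the unfasted libraries, or 41.1 and 49.2 when fasted against 2651 and 2710.3 normalised counts when unfasted. The groups lay far apart for both subunits, and the libraries within a group were close. Rrm1 was lower by a log2 fold change of -4.07 (SE 0.06, edgeR quasi-likelihood adjusted p = 2.13e-11) and Rrm2 by -5.89 (SE 0.09, adjusted p = 2.20e-11). In linear terms this is 16.8-fold lower (95% counting interval 14.5 to 19.6) and 59.4-fold lower (44.5 to 81.1). Differences of this size were common between these libraries, since 7.30% of all tested genes had a lower log2 ratio than Rrm2 and 10.6% a lower one than Rrm1. CPM per kilobase of transcript put Rrm2 in place 1 and Rrm1 in place 2 of the 42 genes in the unfasted libraries, at 65.3 and 39.2, and in places 12 and 5 in the fasted libraries, at 0.775 and 1.65. The balance of the 2 subunits shifted as well, with a level of Rrm1 over that of Rrm2 per length of 2.33 and 1.95 in the fasted libraries and 0.604 and 0.597 in the unfasted libraries. In raw counts Rrm1 was above Rrm2 in every library, so which subunit is the higher in the unfasted libraries depends on the lengths used.

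The promoters of both subunits are printed because these genes carry the difference, over 250 bases before and 50 after the transcription start (RefSeq, build GRCm38.p6). Capitals mark matches to the CCAAT box or to an E2F core, on either strand. Rrm1 lies on the plus strand at chr7:102441445-102441744 and Rrm2 on the plus strand at chr12:24708004-24708303.
Rrm1: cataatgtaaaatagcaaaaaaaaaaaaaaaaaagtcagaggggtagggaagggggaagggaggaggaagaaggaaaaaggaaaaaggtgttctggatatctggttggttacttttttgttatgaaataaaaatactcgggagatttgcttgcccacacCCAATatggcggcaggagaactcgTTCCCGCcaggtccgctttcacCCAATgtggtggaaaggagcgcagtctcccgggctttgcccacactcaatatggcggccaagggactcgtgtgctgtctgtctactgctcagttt
Rrm2: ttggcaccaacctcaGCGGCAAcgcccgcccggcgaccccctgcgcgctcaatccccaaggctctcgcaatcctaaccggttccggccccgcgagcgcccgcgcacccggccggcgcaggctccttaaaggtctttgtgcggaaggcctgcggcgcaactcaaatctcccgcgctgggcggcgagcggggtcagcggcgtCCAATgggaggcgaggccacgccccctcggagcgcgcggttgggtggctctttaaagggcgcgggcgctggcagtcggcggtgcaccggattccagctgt
The window of Rrm1 held CCAAT boxes at 91 and 45 bases before the start and an E2F core at 67 bases before it. That of Rrm2 held a CCAAT box at 50 bases and an E2F core at 235 bases before the start.

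Of the genes that load and open the replicative helicase, the MCM ring, Cdc6, Cdt1 and Gins2 were lower in the fasted libraries. Cdc6, which loads the ring onto origins of replication, had 0 and 1 counts in the fasted libraries, against 29 and 23 counts in the unfasted libraries, a log2 ratio of -3.75 with a counting interval of -9.08 to -1.20 (edgeR adjusted p = 0.00206). Its partner in loading, Cdt1, had 64.7 and 57.0 normalised counts in the fasted libraries and 138 and 139 in the unfasted libraries (log2 fold change -1.19, SE 0.16, edgeR adjusted p = 0.0001). Gins2, part of the GINS complex that activates the ring, had 3 and 4 counts in the fasted libraries, against 154 and 163 counts in the unfasted libraries, and was lower by a log2 fold change of -3.53 (SE 0.33, edgeR adjusted p = 8.44e-06). The fasted libraries thus held at most 4 counts of Cdc6 or Gins2, while Cdt1 was present in all libraries. Cdc6 and Gins2 passed the filter through the unfasted libraries alone, so their counts are the description. The call of Cdc6 was lost without fasted library 1 (edgeR adjusted p = 0.0547), and without unfasted library 1 it was too low to be tested.

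In the MCM ring, Mcm2 and Mcm4 were lower, Mcm7 was higher only in some scalings, and Mcm3, Mcm5 and Mcm6 did not pass the test. Mcm2 had 45.1 and 23.6 normalised counts in the fasted libraries, against 98.8 and 90.2 in the unfasted libraries (log2 fold change -1.46, SE 0.25, edgeR adjusted p = 0.000614). Mcm4 had 94.1 and 118 normalised counts in the fasted libraries and 151 and 154 in the unfasted libraries (-0.52, SE 0.14, edgeR adjusted p = 0.00725), a call lost without fasted library 1 (edgeR adjusted p = 0.0997) and with upper quartile scaling (edgeR adjusted p = 0.0599). Mcm7 was the most abundant ring gene in every library, with 370.3 and 342 normalised counts in the fasted libraries and 272 and 268 in the unfasted libraries (0.40, SE 0.08, edgeR adjusted p = 0.0011), but its log2 value was -0.10 when scaled to total counts and -1.45 when scaled to hepatocyte markers. The normalised counts of the 2 groups did not overlap for these 3 genes. Their calls were no exception, since 82.2% of all tested genes were called. The share of tested genes without overlap is not given, so the lack of overlap does not set these 3 apart. For Mcm7 the order of the groups turned with the scaling, as its CPM was lower in each fasted library than in each unfasted library. Mcm3 had 108 and 57.0 normalised counts in the fasted libraries, on both sides of the 99.8 and 105 of the unfasted libraries. For Mcm5 the values were 29.4 and 29.5 in the fasted libraries and 37.0 and 28.4 in the unfasted libraries, and for Mcm6 62.7 and 70.8 when fasted against 66.4 and 72.0 when unfasted, so both overlapped between the groups in this scaling. When scaled to total counts, Mcm3 and Mcm6 were called lower (log2 fold changes -0.82 and -0.56, edgeR adjusted p = 0.00724 and 0.0167). Mcm5 did not pass (-0.65, edgeR adjusted p = 0.0533), and 62.7% of all tested genes were called lower there. In median-of-ratios scaling, subunits of 1 ring therefore had log2 fold changes of -1.46 to 0.40.

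Pcna, the sliding clamp of DNA polymerases, had the highest level per length of the 42 genes in the fasted libraries, 6.79 CPM per kilobase, against 11.5 in the unfasted libraries. It had 274 and 273 normalised counts in the fasted libraries, against 308 and 346 in the unfasted libraries, with a log2 fold change of -0.26 (SE 0.10, edgeR adjusted p = 0.039). The call did not hold without fasted library 1, fasted library 2 or unfasted library 2 (edgeR adjusted p = 0.298, 0.262 and 0.102). Nor did it hold without a filter (edgeR adjusted p = 0.109), with upper quartile scaling (edgeR adjusted p = 0.631), after thinning to equal total counts (edgeR adjusted p = 0.113), and with DESeq2 (adjusted p = 0.117) or limma-voom (adjusted p = 0.0742). Rrm2 relative to Pcna, per length within a library, stood at 0.104 and 0.124 in the fasted libraries, against 5.96 and 5.42 in the unfasted libraries. Tyms, thymidylate synthase, which makes the thymidine nucleotide for DNA, did not go with ribonucleotide reductase. It had 157 and 114 normalised counts in the fasted libraries and 87.6 and 86.2 in the unfasted libraries. Its log2 fold change was 0.64 (SE 0.17, edgeR adjusted p = 0.00621), but 0.14 when scaled to total counts and -1.21 when scaled to hepatocyte markers. Leaving out fasted library 1, unfasted library 1 or unfasted library 2 ended its call (edgeR adjusted p = 0.0715, 0.065 and 0.0505).

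**Figure D2:**
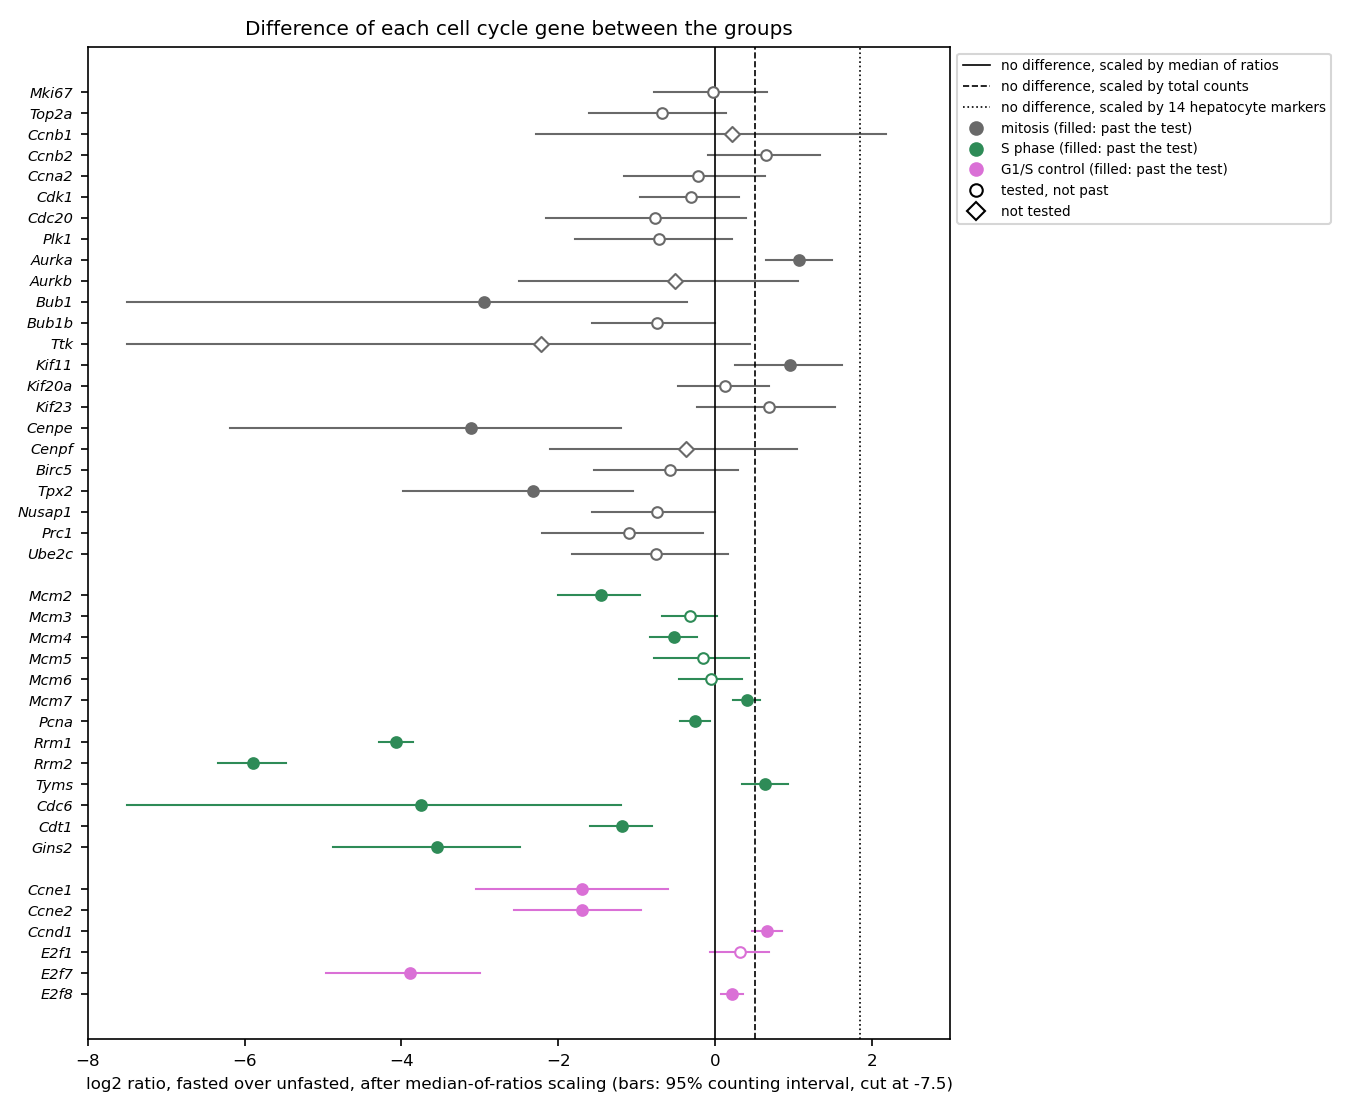
Log2 ratio of each of the 42 genes, fasted over unfasted, from summed counts after median-of-ratios scaling, with bars for the 95% counting interval, filled symbols for genes past the edgeR test and vertical lines where no difference would lie under 3 scalings. Rrm1 and Rrm2 lie at -4.07 and -5.89 with short intervals, and the genes right of the solid line (such as Aurka at 1.08) are all left of the dotted line for hepatocyte markers, except for the upper end of the interval of the untested Ccnb1.

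Among the G1/S genes, the E type cyclins and E2f7 were lower in the fasted libraries. Cyclin E, encoded by Ccne1 and Ccne2, activates the kinase CDK2 to start DNA replication and is known to be needed for endoreduplication of mouse trophoblast giant cells. Ccne1 had 1 and 6 counts in the fasted libraries, against 53 and 35 in the unfasted libraries (log2 fold change -1.68, SE 0.59, edgeR adjusted p = 0.0258). It passed the filter through the unfasted libraries alone, so its counts are the description. Ccne2 had 7 and 8 counts in the fasted libraries, against 102 and 87 in the unfasted libraries (-1.69, SE 0.31, edgeR adjusted p = 0.00084). The 2 fasted libraries differed for Ccne1. Its call ended without fasted library 1, fasted library 2 or unfasted library 1 (edgeR adjusted p = 0.329, 0.0506 and 0.159) and without a filter (edgeR adjusted p = 0.133). Ccnd1, cyclin D1, which passes growth signals on to the kinases CDK4 and CDK6, had 317 and 311 normalised counts in the fasted libraries and 198 and 199 in the unfasted libraries. Its log2 fold change was 0.66 (SE 0.08, edgeR adjusted p = 6.72e-05), but 0.16 when scaled to total counts and -1.18 when scaled to hepatocyte markers.

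E2f7 and E2f8 encode a pair of atypical E2F repressors that act together on S phase genes and are known to shape the ploidy of mouse hepatocytes and trophoblast giant cells, and here they parted. E2f7 had 6 and 4 counts in the fasted libraries, against 293 and 282 counts in the unfasted libraries (log2 fold change -3.88, SE 0.26, edgeR adjusted p = 8.19e-07). It passed the filter through the unfasted libraries alone, so its counts are the description. E2f8 had 504 and 543 normalised counts in the fasted libraries and 458 and 443 in the unfasted libraries (0.21, SE 0.06, edgeR adjusted p = 0.0103), with log2 values of -0.29 when scaled to total counts and -1.63 when scaled to hepatocyte markers. The level of E2f8 over that of E2f7, which is free of scaling, was 63.5 and 102 per length in the fasted libraries, against 4.58 and 4.60 in the unfasted libraries. The call of E2f8 ended without fasted library 2, unfasted library 1 or unfasted library 2 (edgeR adjusted p = 0.0787, 0.0544 and 0.0802) and with DESeq2 (adjusted p = 0.083). E2f1, an activator of the family, had 70.5 and 88.5 normalised counts in the fasted libraries and 58.3 and 69.5 in the unfasted libraries. It did not pass the test (0.32, SE 0.20, edgeR adjusted p = 0.176, and -1.53 when scaled to hepatocyte markers).

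The promoter windows of this pair are printed because their levels parted, with E2F cores, CCAAT boxes and the CHR element (a promoter element of mitosis genes) in capitals. E2f7 is on the plus strand at chr10:110745189-110745488 and E2f8 on the minus strand at chr7:48881547-48881846, given 5′ to 3′ along the gene.
E2f7: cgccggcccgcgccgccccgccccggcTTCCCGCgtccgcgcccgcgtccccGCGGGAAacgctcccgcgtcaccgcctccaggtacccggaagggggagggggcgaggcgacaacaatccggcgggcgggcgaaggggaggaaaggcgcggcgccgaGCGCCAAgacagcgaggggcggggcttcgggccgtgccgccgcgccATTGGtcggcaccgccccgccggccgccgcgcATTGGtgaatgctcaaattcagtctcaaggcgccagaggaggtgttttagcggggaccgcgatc
E2f8: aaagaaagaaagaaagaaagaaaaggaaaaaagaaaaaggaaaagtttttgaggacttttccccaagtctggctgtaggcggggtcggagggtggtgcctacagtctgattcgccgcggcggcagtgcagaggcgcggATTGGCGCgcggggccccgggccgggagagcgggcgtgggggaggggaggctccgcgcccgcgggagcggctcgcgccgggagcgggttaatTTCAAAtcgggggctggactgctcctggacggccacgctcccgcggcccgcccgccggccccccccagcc
In the window of E2f7 stood 3 E2F cores, at 223, 198 and 92 bases before the start. In that of E2f8 there was 1 E2F core at 111 bases before the start, which shares bases with a CCAAT box, and a CHR element at 20 bases before the start.

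The 23 mitosis genes were low in all libraries, with mean levels of 0.0369 to 2.73 CPM in the fasted libraries and 0.135 to 1.84 CPM in the unfasted libraries, and 20 of them in the fasted and 13 in the unfasted libraries were below 1 CPM. Most did not pass the test, and with so few counts their intervals were wide. Scaling to total counts added Cdk1, Plk1, Birc5, Bub1b, Prc1, Cdc20, Ube2c, Nusap1 and Top2a to the genes called lower. In that scaling 62.7% of all tested genes were called lower. Of the added genes, only Cdk1, Bub1b and Nusap1 passed the filter in both groups. Among the genes that bring cells into mitosis, Cdk1, the mitotic kinase, had 11 and 16 counts in the fasted libraries and 63 and 66 counts in the unfasted libraries (21.6 and 31.5 when fasted against 31.9 and 33.5 normalised counts when unfasted), with a log2 ratio of -0.30 (counting interval -0.96 to 0.30). Its cyclin partners Ccnb1 (1 and 2 counts in the fasted libraries, 7 and 3 in the unfasted libraries), Ccnb2 (11 and 14 when fasted against 26 and 36 when unfasted) and Ccna2 (9 and 5 when fasted against 32 and 31 when unfasted) had log2 ratios of 0.22 (-2.28 to 2.17), 0.64 (-0.09 to 1.33) and -0.22 (-1.17 to 0.64). The polo kinase Plk1 had 4 and 7 counts in the fasted libraries and 32 and 38 in the unfasted libraries, with a ratio of -0.72 (-1.78 to 0.21). None of these passed the test, and the normalised counts of Cdk1 and Ccna2 nearly met or overlapped between the groups.

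Cdk1 and Ccnb2 are shown as the kinase and a cyclin of mitosis, on the minus strand at chr10:69352863-69353162 and at chr9:70421505-70421804, with CHR elements, CCAAT boxes and E2F cores in capitals.
Cdk1: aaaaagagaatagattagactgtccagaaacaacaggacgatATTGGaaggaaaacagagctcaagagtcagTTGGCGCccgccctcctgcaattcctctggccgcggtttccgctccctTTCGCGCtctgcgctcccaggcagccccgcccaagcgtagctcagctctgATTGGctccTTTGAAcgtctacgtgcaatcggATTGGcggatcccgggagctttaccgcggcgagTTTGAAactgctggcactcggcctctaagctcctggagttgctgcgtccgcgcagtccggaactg
Ccnb2: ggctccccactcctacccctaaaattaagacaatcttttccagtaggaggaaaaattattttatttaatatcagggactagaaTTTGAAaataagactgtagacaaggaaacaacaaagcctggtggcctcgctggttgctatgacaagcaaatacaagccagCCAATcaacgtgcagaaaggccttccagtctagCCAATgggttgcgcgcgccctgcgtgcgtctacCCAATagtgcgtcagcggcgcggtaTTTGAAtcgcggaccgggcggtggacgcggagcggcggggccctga
CHR elements lay at 71 and 15 bases before the start of Cdk1, and for Ccnb2 at 167 bases before the start and 5 bases after it. Each window also held 3 CCAAT boxes, and that of Cdk1 an E2F core at 178 and another at 130 bases before the start.

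Of the Aurora kinases, which act at the spindle poles (Aurka) and at the centromeres (Aurkb), only Aurka could be tested. Aurka had 36 and 38 counts in the fasted libraries and 66 and 70 in the unfasted libraries, or 70.5 and 74.7 when fasted against 33.4 and 35.5 normalised counts when unfasted. Its log2 fold change was 1.07 (SE 0.19, edgeR adjusted p = 0.000777), but 0.57 when scaled to total counts and -0.77 when scaled to hepatocyte markers. Among the mitosis genes of the 42 it had the most counts. Tpx2, which activates Aurora A on the spindle, was lower, with 3 and 2 counts in the fasted libraries, against 44 and 53 counts in the unfasted libraries (log2 fold change -2.30, SE 0.45, edgeR adjusted p = 0.00121). Tpx2 passed the filter through the unfasted libraries alone, so its counts are the description. Aurkb had 2 and 2 counts in the fasted libraries and 8 and 14 in the unfasted libraries, with a log2 ratio of -0.51 (counting interval -2.50 to 1.05). The survivin gene Birc5, a partner of Aurora B, had 9 and 4 counts in the fasted libraries and 32 and 43 in the unfasted libraries, with a log2 ratio of -0.57 (counting interval -1.55 to 0.29).

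Of the genes of the checkpoint at the kinetochore, where chromosomes attach to the spindle, Cenpe and Bub1 were lower. The motor Cenpe had 1 and 1 counts in the fasted libraries, against 35 and 32 counts in the unfasted libraries, a log2 ratio of -3.11 (counting interval -6.19 to -1.20, edgeR adjusted p = 0.000676). The checkpoint kinase Bub1 had 0 and 1 counts in the fasted libraries, against 15 and 15 counts in the unfasted libraries, a log2 ratio of -2.95 (-8.30 to -0.36, edgeR adjusted p = 0.00813). The call of Bub1 was lost without fasted library 1 (edgeR adjusted p = 0.131) and with DESeq2 (adjusted p = 0.117), and without either unfasted library the gene was too low to be tested. After thinning to equal total counts, both Cenpe and Bub1 were too low to be tested. Both passed the main filter through the unfasted libraries alone, so their counts are the description. Of the other checkpoint and kinetochore genes, Bub1b had 11 and 6 counts in the fasted libraries and 55 and 55 in the unfasted libraries, with a log2 ratio of -0.74 (-1.57 to 0.0041). The kinase Ttk (1 and 0 counts when fasted against 7 and 11 when unfasted) had a ratio of -2.22 (-7.60 to 0.45) and Cenpf (3 and 2 when fasted against 12 and 13 when unfasted) a ratio of -0.37 (-2.11 to 1.04), both untested.

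Of Kif11, Kif20a and Kif23, kinesin motors of the spindle and of cell division, only Kif11 passed the test. Kif11, which pushes the spindle poles apart, had 17 and 12 counts in the fasted libraries and 28 and 30 in the unfasted libraries, or 33.3 and 23.6 when fasted against 14.2 and 15.2 normalised counts when unfasted. Its log2 fold change was 0.95 (SE 0.29, edgeR adjusted p = 0.0147), but -0.89 when scaled to hepatocyte markers. The call ended without fasted library 1 or unfasted library 1 (edgeR adjusted p = 0.171 and 0.071), with total count scaling (edgeR adjusted p = 0.197), after thinning (edgeR adjusted p = 0.0622) and with DESeq2 (adjusted p = 0.1). Kif20a and Kif23, which act in the cleavage of the cell, had 19 and 15 when fasted against 61 and 60 counts when unfasted and 11 and 6 when fasted against 22 and 19 counts when unfasted. Their log2 ratios were 0.12 (-0.47 to 0.68) and 0.68 (-0.23 to 1.53), neither past the test, and both lay below 0 when scaled to hepatocyte markers (-1.72 and -1.15).

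The remaining mitosis genes had log2 ratios of -1.10 to -0.03, none past the main test. When scaled to total counts, Prc1, Cdc20, Ube2c, Nusap1 and Top2a were called lower (edgeR adjusted p = 0.00935, 0.0307, 0.0072, 0.00662 and 0.0172). Mki67 was not (edgeR adjusted p = 0.193). In that scaling 62.7% of all tested genes were called lower. Prc1, Cdc20, Ube2c and Top2a passed the filter through the unfasted libraries alone, so they had to be low in the fasted ones. TMM scaling also called Prc1 lower (edgeR adjusted p = 0.0401). Prc1, which bundles the microtubules between the parting chromosomes, had 8 and 2 counts in the fasted libraries and 45 and 38 in the unfasted libraries (-1.10, counting interval -2.21 to -0.15, edgeR adjusted p = 0.057). Cdc20 and Ube2c, both of which serve the complex that ends mitosis by marking cyclins for destruction, had 2 and 5 when fasted against 20 and 26 counts when unfasted and 6 and 5 when fasted against 34 and 38 counts when unfasted (-0.76 for each). The spindle protein Nusap1 had 11 and 6 counts in the fasted libraries and 59 and 51 in the unfasted libraries (-0.74, -1.57 to 0.0041). Mki67, the source of the Ki-67 antigen of proliferating cells, had 8 and 14 counts in the fasted libraries and 36 and 51 in the unfasted libraries (-0.03, -0.78 to 0.66), and Top2a, the topoisomerase that untangles chromosomes, had 9 and 5 when fasted against 50 and 37 when unfasted (-0.68, -1.61 to 0.14). The normalised counts of Mki67, 15.7 and 27.5 in the fasted libraries and 18.2 and 25.9 in the unfasted libraries, overlapped in full.

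Set side by side, the mitosis and the S phase genes had nearly the same median. It was -0.57 over 23 mitosis genes (2 higher, 3 lower, 14 not past the test, 4 not tested) and -0.53 over 13 S phase genes (2 higher, 8 lower, 3 not past), against -0.74 over the 6 G1/S genes (2 higher, 3 lower, 1 not past) and -0.13 over all tested genes (37.2% higher, 45% lower). The 3 lower mitosis genes, Bub1, Cenpe and Tpx2, all passed the filter through the unfasted libraries alone and had to be low in the fasted ones. The same holds for Cdc6 and Gins2 among the lower S phase genes and for Ccne1 and E2f7 among the lower G1/S genes. The counts of lower genes thus cannot rank the lists. The difference of the first 2 medians, mitosis minus S phase, was -0.05, and it was 0.34, 0.33 and 0.16 without fasted library 1, fasted library 2 and unfasted library 2, so the medians gave no stable order.

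Summed counts told the lists apart, and did so through 2 genes. Within a library, where scaling plays no part, the counts of the 23 mitosis genes over those of the 13 S phase genes stood at 0.265 and 0.253 in the fasted libraries, against 0.0578 and 0.0597 in the unfasted libraries. The means were 0.259 ± 0.008 and 0.0587 ± 0.0014 (SD, n = 2 libraries each), 4.41-fold higher in the fasted libraries. Rrm1 and Rrm2 together made up 15.1% and 17.0% of the S phase counts in the fasted libraries, against 80.5% and 80.4% in the unfasted libraries. Without these 2 genes, an alternative chosen after seeing the data, the ratio was 0.312 and 0.305 in the fasted libraries and 0.296 and 0.304 in the unfasted libraries, 1.03-fold apart. With the mean log2 CPM over genes in place of the sum, the ratio was 1.91-fold higher in the fasted libraries. With 2 libraries a group there are too few for a permutation test to pass, and no p is given for sums over chosen genes. In normalised counts, Rrm1 and Rrm2 summed to 216 and 224 in the fasted libraries, against 5568 and 5660.4 in the unfasted libraries. The other 11 S phase genes summed to 1211 and 1096 when fasted against 1352 and 1384 when unfasted, and the mitosis genes to 378 and 334 when fasted against 399.7 and 421 when unfasted. Giant cell markers moved with the same libraries, 4 of 6 being at 0 in both fasted libraries and all 6 present in the unfasted libraries. This was not particular to giant cells, since spongiotrophoblast, labyrinth and decidual marker sums were higher in the unfasted libraries too. Spongiotrophoblast and glycogen cell markers had the largest of these sums there, 44512 and 44948 CPM, against 10614 and 10698 CPM for giant cell markers. The part of any of these lists in this ratio was not tested.

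**Figure D3:**
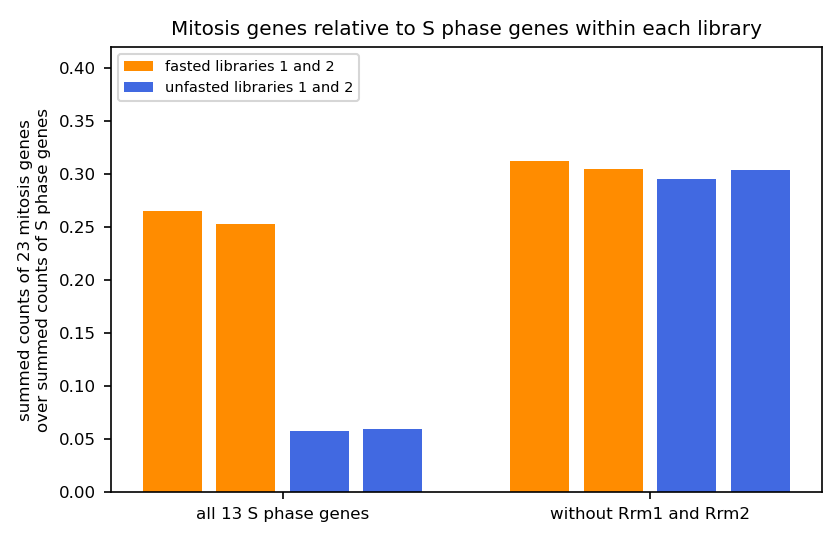
Summed counts of the 23 mitosis genes over summed counts of the S phase genes within each library, with all 13 S phase genes at the left and without Rrm1 and Rrm2 at the right, fasted libraries in orange and unfasted libraries in blue. The ratio is 0.265 and 0.253 in the fasted libraries and 0.0578 and 0.0597 in the unfasted libraries, and without the 2 genes all 4 libraries lie between 0.296 and 0.312.

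The promoters of the lists differed in sequence, whatever the levels. A window was at hand for 34 of the 42 genes and for 27025 genes of the genome. Motifs were searched on both strands. The CHR element was taken as the letters TTTGAA or the letters TTCGAA, and the CCAAT box as CCAAT alone. The E2F core was 1 of 4 words, namely TTGGCGC with a double G, TTGCCGC with a double C, TTCGCGC with alternating letters, or the word TTCCCGC with a triple C. The first of these can share up to 4 bases with a CCAAT box on the other strand, as in the window of E2f8, and E2F cores on opposite strands can overlap each other. A CHR element stood in 15 of 19 windows of mitosis genes, 2 of 11 of S phase genes and 1 of 4 of G1/S genes, against 21.7% of all windows. Each of the 15 mitosis windows with a CHR element held a CCAAT box as well, a pair found in 8.61% of all windows. An E2F core stood in 3 of 19 windows of mitosis genes, 8 of 11 of S phase genes and 2 of 4 of G1/S genes, against 10.9% of all windows. CCAAT boxes were frequent throughout, in 17 of 19, 8 of 11 and 2 of 4 windows of the 3 lists and in 41.1% of all windows. These are matches of letters, not sites of binding.

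**Figure D4:**
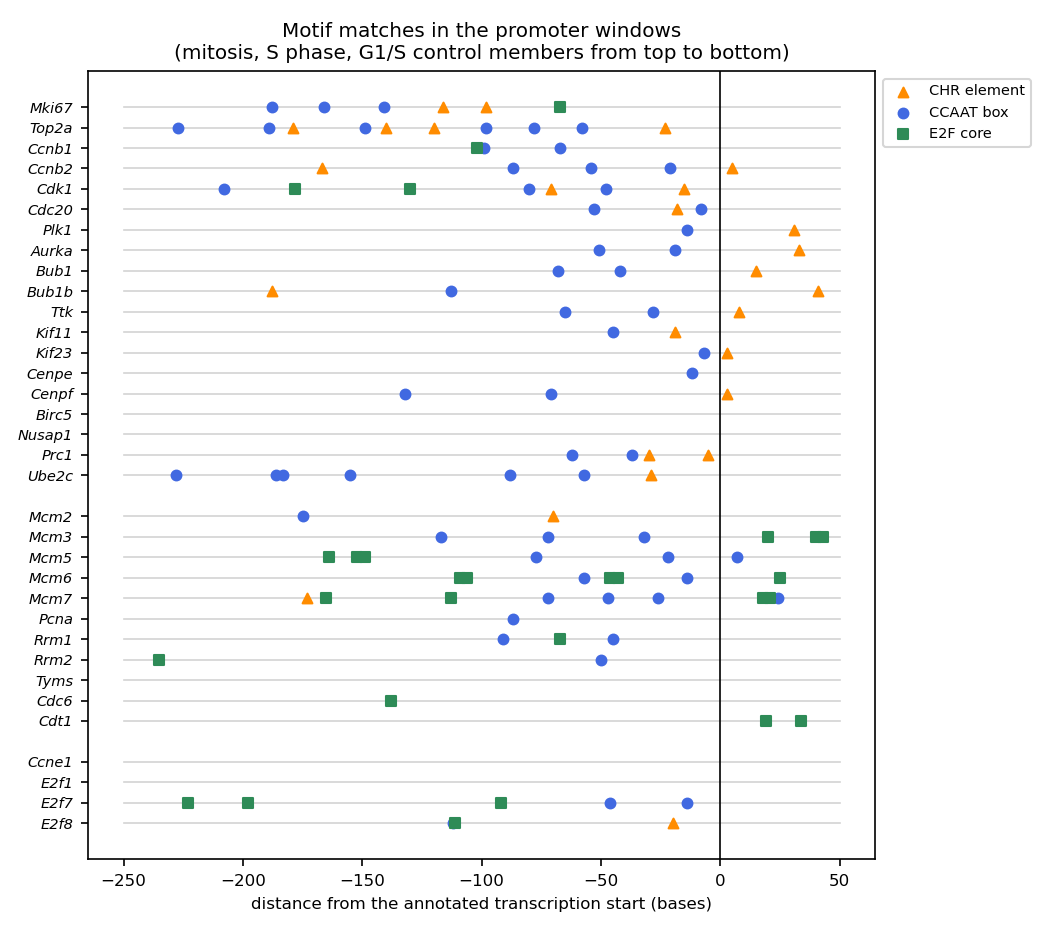
Position of each motif match in the 34 promoter windows, as distance in bases from the annotated transcription start, with 1 line per gene and mitosis, S phase and G1/S genes from top to bottom. CHR elements (triangles) mark 15 of 19 mitosis genes and E2F cores (squares) 8 of 11 S phase genes, while CCAAT boxes (circles) are found in all 3 lists.

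Of 137 other genes of the cell cycle, 117 were tested, 21 were higher and 58 lower in the fasted libraries, against 37.2% and 45% of all tested genes. Of the 117, 91 passed the filter in both groups (19 higher, 41 lower), 24 through the unfasted libraries alone (17 lower) and 2 through the fasted libraries alone (both higher). A gene that passed in 1 group alone had to be low in the other. When scaled to total counts the calls were 12 and 82 (23% and 62.7% of all tested genes). When scaled to hepatocyte markers they were 1 and 110 (3.93% and 91.4% of all tested genes). Of 37 further DNA replication genes, 5 were higher, 19 lower and 12 not past the test (median log2 ratio -0.50). Cdc7, the kinase that fires origins, had 3 and 2 counts in the fasted libraries, against 172 and 191 in the unfasted libraries (log2 fold change -4.20, SE 0.36, edgeR adjusted p = 4.93e-06). Gins3, a partner of Gins2, had 5 and 2 when fasted against 179 and 177 when unfasted (-3.70, SE 0.34, edgeR adjusted p = 7.75e-06). Both passed the filter through the unfasted libraries alone, so they had to be low in the fasted ones and their counts are the description. The other subunits of the GINS complex, named after their values were seen, were called higher in median-of-ratios scaling. Neither call held when scaled to total counts (edgeR adjusted p = 0.156 for Gins1 and 0.999 for Gins4) or without a filter (edgeR adjusted p = 0.107 and 0.131). Gins1 had 31 and 32 counts in the fasted libraries and 77 and 45 in the unfasted libraries (1.0, SE 0.31, edgeR adjusted p = 0.015), but 0.49 when scaled to total counts and -0.85 when scaled to hepatocyte markers. Gins4 had 207 and 134 counts in the fasted libraries and 473 and 458 in the unfasted libraries (0.50, SE 0.15, edgeR adjusted p = 0.0124), but 0.00028 when scaled to total counts and -1.34 when scaled to hepatocyte markers. Replication genes were not lower throughout. Mcm10, which helps the MCM ring to unwind DNA, had 1458 and 1481 counts in the fasted libraries and 895 and 899 in the unfasted libraries (2.67, SE 0.03, edgeR adjusted p = 1.21e-11). It alone of the 137 was still called higher when scaled to hepatocyte markers (0.82).

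Among 57 further mitosis genes, 8 were higher, 12 lower, 18 not past the test and 19 not tested (median log2 ratio -0.37). Of all tested genes, 37.2% were called higher and 45% lower. The lowest ratios of those past the test were those of Fam83d (1 and 1 counts in the fasted libraries, 29 and 36 in the unfasted libraries, log2 ratio -3.07, counting interval -6.14 to -1.16) and the separase gene Espl1 (1 and 1 when fasted against 23 and 19 when unfasted, -2.44, counting interval -5.53 to -0.50), which passed the filter through the unfasted libraries alone. The highest were those of the centrosome kinase Nek2 (58 and 56 when fasted against 52 and 49 when unfasted, 2.12, edgeR adjusted p = 4.67e-06) and the kinetochore gene Spc25 (71 and 62 when fasted against 78 and 55 when unfasted, 1.95, edgeR adjusted p = 2.67e-05), which remained above 0 when scaled to hepatocyte markers (0.28 and 0.10), though no longer past the test. Pttg1, securin, which holds separase in check, had the highest mean CPM over the 4 libraries of them, with 413 and 362 counts in the fasted libraries and 1100 and 1067 in the unfasted libraries (0.47, edgeR adjusted p = 0.000102; -0.03 when scaled to total counts and -1.38 when scaled to hepatocyte markers).

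Of 19 cyclins, kinases and E2F genes, 6 were higher and 8 lower (median -0.14), against 37.2% and 45% of all tested genes. Fbxw7, which marks cyclin E for destruction, had 160 and 160 counts in the fasted libraries, against 2340 and 2318 in the unfasted libraries (-1.91, SE 0.05, edgeR adjusted p = 1.5e-09). Myc, a driver of growth, had 44 and 42 when fasted against 340 and 318 when unfasted (-0.98, edgeR adjusted p = 0.000169), and Cdk4, with the highest mean CPM over the 4 libraries, had 405 and 394 when fasted against 2415 and 2462 when unfasted (-0.66, edgeR adjusted p = 7.4e-07). Cdk6 (49 and 51 when fasted against 51 and 77 when unfasted, 1.59, edgeR adjusted p = 0.00024) and Ccnh (220 and 277 when fasted against 577 and 582 when unfasted, 0.73, edgeR adjusted p = 0.000103) were higher, but below 0 when scaled to hepatocyte markers (-0.25 and -1.12).

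The inhibitors of division had the lowest median of the lists, -1.94 over 24 genes. Of these, 2 were higher, 19 lower and 3 not past the test, while 37.2% of all tested genes were higher and 45% lower. The filter was passed by 20 of the 24 in both groups and by 4 through the unfasted libraries alone, which had to be low in the fasted ones. Cdkn1c, the p57 inhibitor of cyclin-dependent kinases, known to act in the switch of mouse trophoblast to endoreduplication, had 9 and 19 counts in the fasted libraries, against 8982 and 9231 counts in the unfasted libraries (-7.39, SE 0.11, edgeR adjusted p = 3.19e-11). Gadd45b, a stress gene that can halt the cycle, had 15 and 9 counts in the fasted libraries, against 2657 and 2658 in the unfasted libraries (-5.83, SE 0.11, edgeR adjusted p = 1.02e-10). The unfasted libraries were thus high both in ribonucleotide reductase and in these inhibitors. Cdkn2c, the p18 inhibitor of CDK4 and CDK6, and Rbl2, a relative of the retinoblastoma protein, were higher in the fasted libraries, with 40 and 39 when fasted against 76 and 95 counts when unfasted (0.84, edgeR adjusted p = 0.00491) and 576 and 550 when fasted against 1230 and 1151 counts when unfasted (0.87, edgeR adjusted p = 3.82e-07), but their log2 values were -1.01 and -0.98 when scaled to hepatocyte markers. When scaled to total counts, Cdkn2c did not pass the test (0.33, edgeR adjusted p = 0.153), while Rbl2 did (0.37, edgeR adjusted p = 0.000141). Placental RNA, as given above by its markers, was high in the same libraries as Cdkn1c, and its part in these values was not tested.

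**Figure D5:**
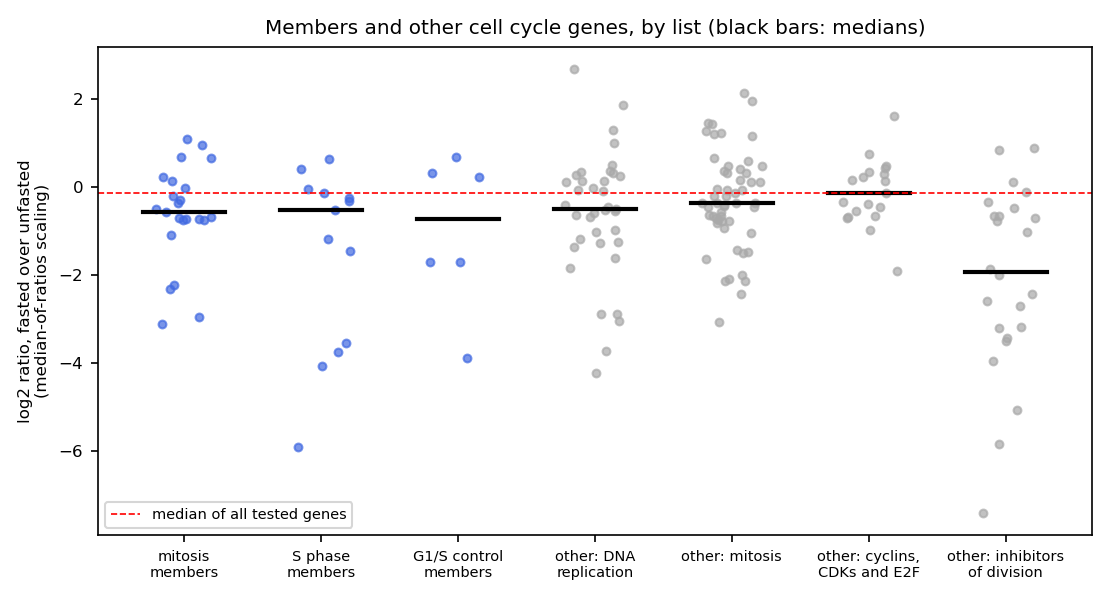
Log2 ratio, fasted over unfasted, of each gene of the 3 lists of 42 genes (blue) and of the 4 lists of 137 other genes (grey), after median-of-ratios scaling, with black bars for list medians and a dashed line for the median of all tested genes at -0.13. The medians are -0.57, -0.53 and -0.74 for the 3 lists and -0.50, -0.37, -0.14 and -1.94 for the others, and all of them would lie 1.85 lower when scaled to hepatocyte markers.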

How the data were processed

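The authors deposited, for each of the 4 liver libraries, raw counts of 27179 genes by Entrez identifier. They named STAR, featureCounts, Trimmomatic and DESeq2 1.32.0 with build GRCm39 in their processing notes, and the strand setting is not given in the sources used here, so reads of a gene and of an antisense gene cannot be told apart. Names came from RefSeq GRCm38.p6 (1904 identifiers had none), promoter windows from the same build, and lengths from the longest protein-coding transcript in GENCODE M21. Genes were filtered with filterByExpr (about 0.396 CPM in 2 libraries), brought to one scale by median of ratios, and compared by edgeR 4.0.16 in R 4.3.3 (quasi-likelihood test, two-sided, Benjamini-Hochberg over 15470 genes at 0.05). Log2 ratios of summed counts have exact (Clopper-Pearson) 95% intervals, which, like Wilson intervals of shares, cover counting error only. Alternatives were other scalings (TMM, upper quartile, total counts, 14 hepatocyte markers), other filters, DESeq2 1.42.0, limma 3.58.1 voom, the deviance computed exactly, a minimum fold of 2, thinning to the shallowest library, a replicate block and leaving out each library. The scripts were tested on simulated data. The 42 genes, the other lists and the tests were chosen with earlier results of these data known. Named are all 42 genes and, of each other list, the 2 highest and 2 lowest fold changes past the test and the gene with the highest mean CPM. Some genes that this rule or the marker lists hold are not reported here. Replicate pairs differed only slightly more than counting noise (mean squared deviation 1.12 in the fasted and 1.13 in the unfasted pair, where 1 is noise alone). The common biological coefficient of variation in the edgeR fit was 0.0099. Each library was counted as 1 sample, but so small a spread may be technical, and the p-values may not stand for variation between mice.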

Additional observations from a re-analysis of the deposited data

How the results depend on the processing

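Scaled to total counts, 3551 of all tested genes were higher in the fasted libraries, 1 of the 42 genes was higher and 26 lower (mitosis 1 higher and 12 lower, S phase 0 higher, G1/S control 0 higher), 12 of the 137 other genes were higher, the medians were -1.08 for mitosis and -1.03 for S phase, and Mcm7, E2f8 and Pttg1 had log2 fold changes of -0.10, -0.29 and -0.034. Scaled to the hepatocyte markers, 608 genes were higher and 14144 lower, 0 of the 42 were higher and 38 lower (19 mitosis, 13 S phase and 6 G1/S genes, with 0 higher in each list), 1 of the other genes was higher and 110 lower, and the medians were -2.42 and -2.37. Values that turned negative in that scaling were those of Ccnb2 (-1.20), Aurka (-0.77), Kif11 (-0.89), Kif20a (-1.72), Kif23 (-1.15), Mcm7 (-1.45), Tyms (-1.21), Ccnd1 (-1.18), E2f1 (-1.53), E2f8 (-1.63), Pttg1 (-1.38), Ccnh (-1.12), Cdk6 (-0.25), Cdkn2c (-1.01) and Rbl2 (-0.98). These follow from the scaling's shift of all genes. With a minimum fold of 2, 2273 genes were higher and 3990 lower, 0 of the 42 higher and 9 lower (4 of S phase lower, and 0 higher in each of the 3 lists), and 7 of the other genes higher and 28 lower. With upper quartile scaling the S phase median was -0.32. TMM gave 5 mitosis genes lower. DESeq2 gave 1 mitosis and 1 G1/S gene higher, the filter at a CPM of 1 gave 1 mitosis gene higher, and thinning gave 1 mitosis gene higher and 1 lower. The ratio of mitosis to S phase counts, 4.41-fold higher in the fasted libraries, was 1.91-fold with mean log2 CPM, 2.55-fold without the most abundant gene of each list and 1.03-fold without Rrm1 and Rrm2, where the S phase median was -0.32 (both chosen after seeing the data). Leaving out 1 library at a time gave 3 to 5 of the 42 genes higher and 11 to 12 lower (mitosis 1 to 2 higher, S phase 1 to 2 higher, G1/S control 1 to 2 higher), an S phase median of -0.81 to -0.52 and a difference of the medians, mitosis minus S phase, of -0.0919 to 0.34, which turned positive without fasted library 1 (0.34), fasted library 2 (0.33) and unfasted library 2 (0.16). The replicate numbers did not pair the libraries (correlation of deviations -0.0019 over 12573 genes), and a fit with the replicate block called 5743 genes higher and 6929 lower and kept 20 of 20 calls of the 42 genes. Depth limits the mitosis genes most, since 20 of 23 were below 1 CPM in the fasted libraries, the shallower ones, and a missing call there does not show that levels were alike.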

Other observations

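Since ribonucleotide reductase stood apart, 8 further genes of the deoxynucleotide pool were read, chosen after its values were seen. They did not go one way. Rrm2b, the subunit that replaces Rrm2 outside S phase, had 66 and 68 counts in the fasted libraries and 472 and 451 counts in the unfasted libraries (log2 fold change -0.83, SE 0.11, edgeR quasi-likelihood adjusted p = 9.08e-05). The level of Rrm2 over that of Rrm2b per length was 0.662 and 0.765 in the fasted libraries, against 23.1 and 24.7 in the unfasted libraries, so Rrm2b was the higher of the 2 in the fasted libraries and the lower in the unfasted libraries. Samhd1, which breaks deoxynucleotides down, was lower as well, with 196 and 188 counts in the fasted libraries and 2423 and 2478 in the unfasted libraries (-1.72, edgeR adjusted p = 3.23e-09). Dctd, which makes the substrate of thymidylate synthase, had 0 and 0 counts in the fasted libraries, against 35 and 41 in the unfasted libraries, and Dck, a salvage kinase, had 59 and 54 when fasted against 333 and 336 when unfasted (-0.61, edgeR adjusted p = 0.0015). Tymp, thymidine phosphorylase, which degrades thymidine, had 1762 and 1854 counts in the fasted libraries and 2042 and 1993 in the unfasted libraries (1.80, edgeR adjusted p = 1.74e-10; -0.05 when scaled to hepatocyte markers). The mitochondrial salvage kinase Tk2 and Nt5c3 had log2 fold changes of 0.43 each (edgeR adjusted p = 0.000121 and 0.000566), which were -0.08 for each when scaled to total counts and -1.42 for each when scaled to hepatocyte markers, and Dguok, the other mitochondrial kinase, did not pass the test (-0.18, edgeR adjusted p = 0.0853).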
